A study of Mus musculus with 20 samples.

Results

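The mRNA levels of 35 antioxidant, glutathione and thioredoxin genes were examined in the hearts of iron-deficient and anemic mice. The genes were taken by name, as known members of these enzyme systems, from 23420 genes in the count table. The set holds superoxide dismutases and catalase, glutathione peroxidases, peroxiredoxins with sulfiredoxin, thioredoxins with their reductases and *Msra*, enzymes of glutathione synthesis and recycling, glutaredoxins and glutathione transferases, the regulators *Nfe2l2* and *Keap1* with their target *Nqo1*, the lipid enzyme *Acsl4*, and 2 metallothioneins. Of these, 34 passed the filter of at least 1 CPM (read pairs scaled to library size) in no fewer than 10 hearts and were tested, and the cystine transporter gene *Slc7a11* did not pass.

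Whole hearts of 20 male wild-type C57BL/6 mice, 9 weeks old, were sequenced as poly(A)-selected mRNA. From the age of 3 weeks, 10 mice received an iron-deficient diet for 6 weeks (IDA mice), and 10 mice received an iron-adjusted control diet for the same time. The labels do not give 1 value for the iron in the deficient diet, stating it as below a limit in 1 field and above the same limit in another. The 2 groups differed by diet from weaning onward, so iron deficiency and anemia cannot be told apart in this design. Read pairs counted on genes numbered 6797180 to 8960688 in control hearts and 6682177 to 7833916 in IDA hearts. In each group 1 heart stood apart by hepatocyte markers: the liver gene *Alb* was at 50.3 CPM in control replicate 4 and at 91.4 CPM in IDA replicate 7, and at no more than 6.19 and 10.04 CPM in the other hearts of the same groups.

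Cells make superoxide and hydrogen peroxide as by-products of respiration, and the heart, which is rich in mitochondria, carries overlapping systems that remove them. Superoxide dismutases turn superoxide into hydrogen peroxide, which is then reduced by catalase, by glutathione peroxidases at the expense of glutathione, or by peroxiredoxins at the expense of thioredoxin. Glutathione and thioredoxin are kept reduced by NADPH-dependent reductases, and the transcription factor NRF2, held in check by KEAP1, drives many of these genes through the antioxidant response element (ARE) in their promoters. Metallothioneins bind zinc and copper, and the transcription factor MTF1 drives their genes through metal response elements (MRE).

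The promoters of the members were searched for short core sequences of these 2 elements. RefSeq promoter windows on GRCm38.p6, from 250 bases before to 50 bases after each transcript start, were matched by symbol to 29 of the 35 genes. The remaining genes, *Gclc* among them, had no window and were not searched. The ARE core was searched as TGACNNNGC on both strands and was found in the windows of 8 member genes, in 12.4% of all 32851 promoter windows and in 14.0% of the 27025 genes they belong to. The 8 genes were *Sod1*, *Prdx1*, *Srxn1*, *Txnrd1*, *Gclm*, *Mgst1*, *Nfe2l2* and *Mt2*. In *Srxn1* the match lay after the transcript start and is not printed. In the other 7 it lay before the start, and these stretches are shown with the core in capitals, 5′ to 3′ on the strand of the gene, so that a core lying on the opposite strand appears as its reverse complement.
*Nfe2l2*, chr2:75704877-75704913, minus strand: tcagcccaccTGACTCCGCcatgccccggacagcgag
*Gclm*, chr3:122245405-122245449, plus strand: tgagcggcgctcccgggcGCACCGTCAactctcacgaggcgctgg
*Prdx1*, chr4:116685448-116685492, plus strand: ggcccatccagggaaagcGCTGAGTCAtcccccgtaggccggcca
*Mgst1*, chr6:138140453-138140497, plus strand: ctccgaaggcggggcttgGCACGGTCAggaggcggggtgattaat
*Mt2*, chr8:94172521-94172565, plus strand: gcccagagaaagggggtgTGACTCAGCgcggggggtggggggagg
*Txnrd1*, chr10:82859096-82859140, plus strand: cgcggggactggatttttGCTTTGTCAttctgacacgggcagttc
*Sod1*, chr16:90220688-90220732, plus strand: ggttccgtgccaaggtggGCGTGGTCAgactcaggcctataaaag

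The first base of the core lay at position -240 from the transcript start in *Nfe2l2*, -134 in *Gclm*, -133 in *Prdx1*, -92 in *Txnrd1*, -79 in *Mt2*, and -56 in both *Mgst1* and *Sod1*. It had the same orientation as the gene in *Nfe2l2* and *Mt2*, and the opposite orientation in the other 5. The MRE core was searched as TGCACNC or TGCGCNC on both strands and was found in the windows of 8 member genes in 25.7% of all promoter windows and in 28.2% of their genes. Its matches numbered 4 in *Mt2* and 3 in *Mt1*, and in *Mt1* only 1 of these lay before the start. In *Gclm* the MRE core at -138 overlaps the ARE core at -134. The 250 bases before the start of *Mt2*, the member with the most MRE cores, are shown with its 3 MRE cores before the start in capitals.
*Mt2*, chr8:94172368-94172617, plus strand: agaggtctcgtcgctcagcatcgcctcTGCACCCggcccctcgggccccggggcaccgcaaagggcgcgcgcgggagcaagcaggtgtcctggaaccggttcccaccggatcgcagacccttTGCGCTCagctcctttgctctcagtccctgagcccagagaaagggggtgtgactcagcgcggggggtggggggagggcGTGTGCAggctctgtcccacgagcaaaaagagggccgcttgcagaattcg

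These matches describe the letters in the windows only. Occupancy by NRF2 or MTF1 was not measured.

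Of the 34 genes tested, 25 were higher in IDA hearts and 4 were lower by edgeR's quasi-likelihood test (adjusted p below 0.05, Benjamini-Hochberg adjustment over 13590 genes). The 4 lower genes were *Sod2*, *Txnrd1*, *Gclc* and *Acsl4*. The 5 genes that did not pass the test were *Cat*, *Gclm*, *Gsr*, *Glrx2* and *Nfe2l2*. Without the 2 hearts that stood apart by *Alb*, 25 were again higher and 4 lower, all 34 genes had the same call, and the largest shift in a log2 fold change was 0.03, in *Gclm*. Over all 13590 genes tested, 35% were called higher and 32.5% lower. The median log2 fold change of the antioxidant genes was 0.20, against 0.02 for all genes tested. The changes were small: the median absolute log2 fold change was 0.22 for the antioxidant genes and 0.27 for all genes tested. In whole hearts, fewer cells of a type and less RNA per cell cannot be told apart, and this holds for every level given here.

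Gene length moved with these calls. The median exonic length was 1534.5 bp for the tested antioxidant genes and 2900 bp for all tested genes, and 28 of the 34 were shorter than the latter. When all tested genes were divided by exonic length into 10 classes of equal size, the median log2 fold change was 0.34 in the shortest class and -0.53 in the longest. The shortest class held 10 antioxidant genes and the next class held 8, and all 18 were called higher, where 73.0% of all genes of these lengths were. Classes 3 to 6 held 10 antioxidant genes, of which 6 were called higher, where 40.9% of all genes of these lengths were. The 4 longest classes held 6 antioxidant genes, of which 4 were lower (60.4% of all genes of these lengths) and *Keap1* was higher. In a second fit, termed the gene length correction here, the trend of each heart on exonic length was taken out first. With this correction, 9 antioxidant genes were called higher (31.5% of all genes) and 6 lower (23.5% of all genes), and the median log2 fold change was -0.03. With a further correction for GC content, 10 were called higher (26.8% of all genes) and 7 lower (19.9% of all genes). Both corrections remove any trend on length or GC content, whatever its source, and the source was not tested.

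**Figure D1:**
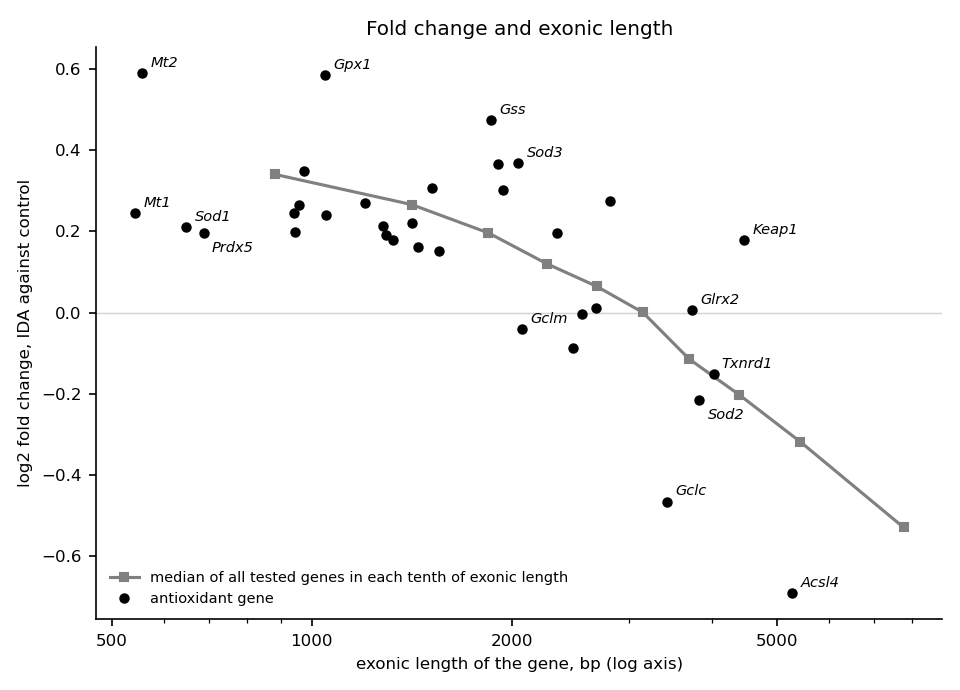
Log2 fold change of each of the 34 tested antioxidant genes (black points, IDA against control) against exonic length in bp on a log axis, with the median of all tested genes in each of 10 classes of exonic length (grey squares and line). The grey line falls from 0.34 to -0.53, and most short antioxidant genes sit near or below it. Among the genes above it are *Gpx1*, *Gss*, *Sod3*, *Srxn1*, *Mt2* and *Keap1*.

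Among the called genes, 8 had the same call in all 12 settings used on the 20 hearts, including both corrections. These were *Sod3*, *Prdx6*, *Srxn1*, *Msra*, *Gss* and *Keap1*, all higher, and *Gclc* and *Acsl4*, both lower. Some of the 12 settings differ only in scaling factors or filter. The setting of p below 0.01 in both packages is not a separate fit, since it reuses the p-values of edgeR and DESeq2. The share of all genes with the same call in all 12 settings was not counted, so these 8 genes cannot be set against it. *Prdx6*, *Srxn1* and *Keap1* were not called within the later run of column header numbers described below. They belong to different systems, and each is described with its system.

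**Figure D2:**
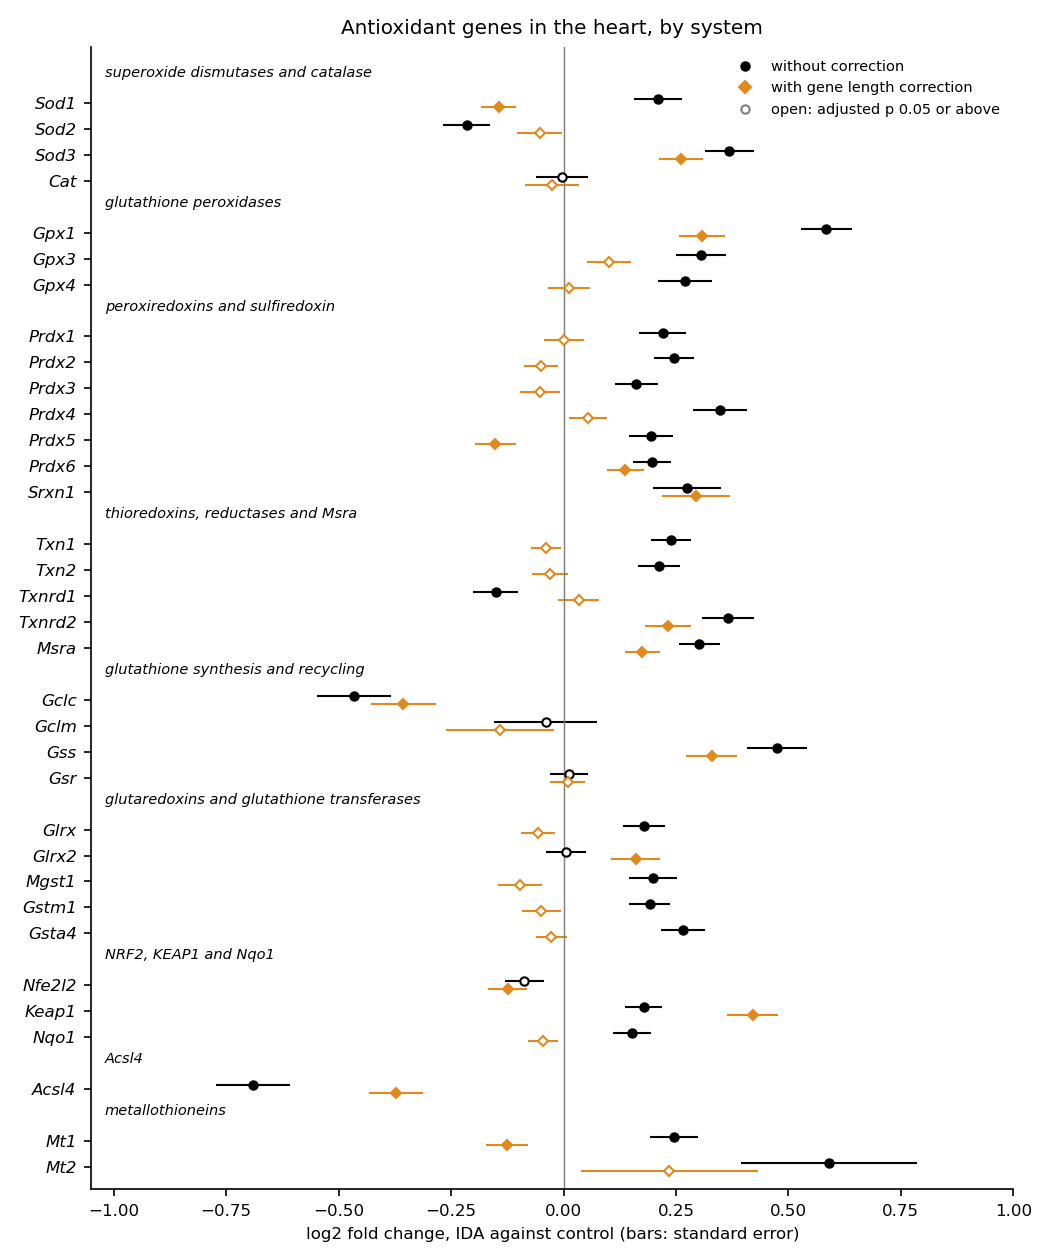
Log2 fold change (IDA against control) with its standard error for the 34 tested antioxidant genes, grouped by system, without correction (black circles) and with the gene length correction (orange diamonds), with open symbols where the adjusted p was 0.05 or above. *Gss* and *Sod3* stayed to the right of 0 and *Gclc* and *Acsl4* to the left in both fits, while most peroxiredoxins, thioredoxins and transferases moved to about 0 with the correction.

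Per exonic length, the antioxidant mRNAs covered a wide range of levels in control hearts. *Prdx5* had the highest level, with 187 CPM per kb in control hearts and 214 CPM per kb in IDA hearts. It was followed in control hearts by *Prdx2* (161 CPM per kb), *Txn2* (148 CPM per kb), *Prdx3* (139.5 CPM per kb) and *Gpx3* (128 CPM per kb). The ranges of neighbouring genes in this order overlapped between mice. Apart from *Slc7a11*, the lowest levels in control hearts were those of *Acsl4* (8.18 CPM per kb), *Gclc* (11.8 CPM per kb), *Glrx2* (17.7 CPM per kb) and *Gclm* (18.4 CPM per kb). Both subunits of the enzyme that starts glutathione synthesis were thus among the least abundant of these mRNAs per length.

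**Figure D3:**
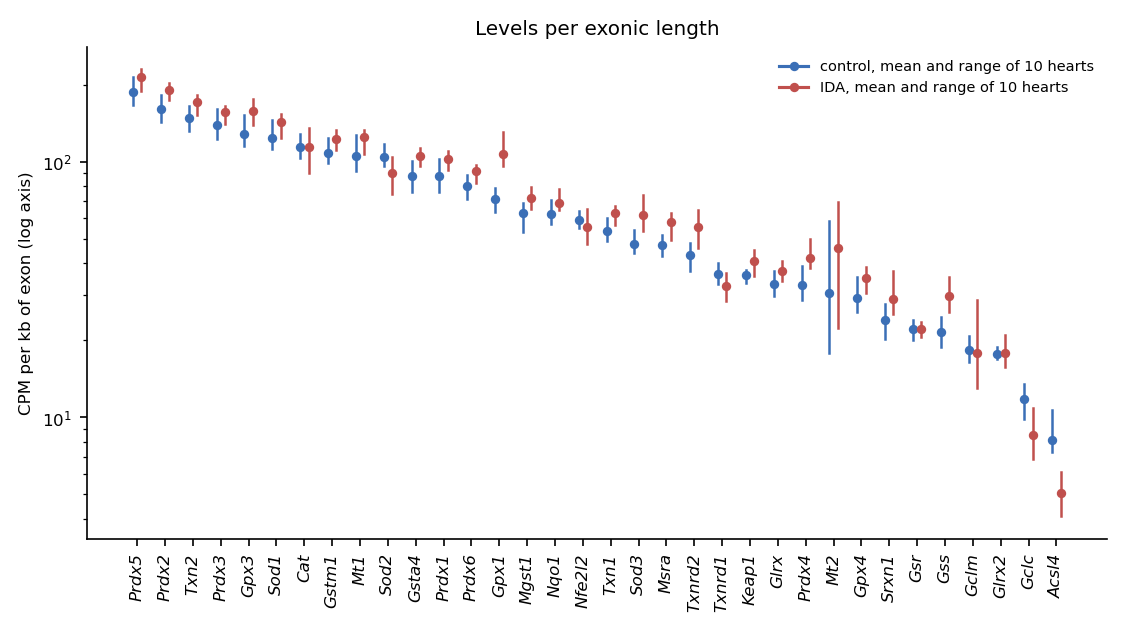
Levels of the 34 tested antioxidant genes in CPM per kb of exon (log axis), ordered by the mean of 10 control hearts, with the mean (point) and the range (line) of 10 control hearts in blue and 10 IDA hearts in red. *Prdx5* is highest at 187 CPM per kb and *Acsl4* is lowest at 8.18 CPM per kb in control hearts, and the control and IDA ranges are separate for *Gpx1*, *Gss* and *Acsl4*.

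Among the superoxide dismutases and catalase, the cytosolic and the extracellular enzyme were higher and the mitochondrial enzyme was lower in IDA hearts, while the gene length correction kept the call of the extracellular enzyme, turned that of the cytosolic enzyme and ended that of the mitochondrial enzyme. *Sod3*, which encodes the secreted dismutase of the extracellular matrix, lies on chromosome 5 from 52363804 to 52369738. Its levels had a lowest, median and highest value of 89.9, 97.0 and 110.3 CPM in control hearts, and 109.7, 125 and 151 CPM in IDA hearts. The groups overlapped only at their edge, and 9 of 10 IDA hearts were above the highest control heart. *Sod3* rose by 0.37 on the log2 scale (standard error (SE) 0.05, adjusted p = 4.18e-06), and by 0.26 with the gene length correction (adjusted p = 0.000117). *Sod2*, the manganese enzyme of the mitochondrial matrix, had 367, 392 and 449 CPM in control hearts (lowest, median, highest) and 287, 341 and 398 CPM in IDA hearts. Of the 10 IDA hearts, 8 were below the lowest control heart. It fell by 0.22 on the log2 scale (SE 0.05, adjusted p = 0.00097), but the change was -0.05 with the gene length correction (adjusted p = 0.381) and 0.13, a call in the other direction, with the correction for length and GC content. *Sod1*, the cytosolic copper-zinc enzyme, had 72.8, 77.3 and 94.1 CPM in control hearts and 80.1, 95.3 and 99.3 CPM in IDA hearts. It rose by 0.21 (adjusted p = 0.00132) and turned to -0.14 with the gene length correction (adjusted p = 0.00369). In addition, 12.2% of the 75-base stretches of *Sod1* transcripts also occur in other genes, so part of its reads may have been counted elsewhere. *Cat*, which encodes catalase, a heme enzyme of peroxisomes, had 265, 290.4 and 326 CPM in control hearts and 229, 294 and 344 CPM in IDA hearts. The groups lay on top of each other, and the log2 fold change was 0.00 (SE 0.06, adjusted p = 0.958).

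The 3 glutathione peroxidases, selenoproteins that reduce peroxides with glutathione, were all higher in IDA hearts, and with the gene length correction 1 of the 3 remained called. *Gpx1*, the cytosolic and mitochondrial enzyme, lies on chromosome 9 from 108339080 to 108340344. It had 66.8, 74.8 and 82.3 CPM in control hearts (lowest, median, highest) and 101, 111 and 137 CPM in IDA hearts. The groups did not overlap. Mean levels of the control and IDA groups were 74.98 ± 6.30 and 112 ± 11.0 CPM (SD, n = 10 each), and the log2 fold change of 0.58 (SE 0.06, adjusted p = 1.65e-07) was the second largest rise among the antioxidant genes without correction. Non-overlapping groups were found for 2 of the 34 antioxidant genes in the higher direction, *Gpx1* and *Gss*, where 4.97% of all genes did so, and for *Acsl4* in the lower direction, where 6.28% of all genes did so. With the length trend removed, *Gpx1* was at 0.31 (adjusted p = 3.15e-05), and at 0.12, without a call, when GC content was also corrected. *Gpx3*, the secreted plasma form, had 175, 188 and 230.5 CPM in control hearts and 210.3, 237.01 and 266 CPM in IDA hearts, with 7 of 10 IDA hearts above the highest control heart. It rose by 0.31 (adjusted p = 3.96e-05), and was at 0.10 with the gene length correction (adjusted p = 0.0826). *Gpx4*, which reduces lipid hydroperoxides in membranes and protects cells from ferroptosis, had 31.0, 34.2 and 42.5 CPM in control hearts and 36.8, 42.8 and 46.7 CPM in IDA hearts. *Gpx4* rose by 0.27 (adjusted p = 0.000409), was at 0.01 with the gene length correction, and was called lower, at -0.24 (adjusted p = 0.000671), with GC content also corrected. As 46.2% of its 75-base stretches also occur in other genes, mainly a pseudogene, this level is uncertain.

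All 6 peroxiredoxins and sulfiredoxin were higher in IDA hearts, with a median log2 fold change of 0.22, whereas with the gene length correction 2 of the 7 were higher (*Prdx6* and *Srxn1*), *Prdx5* was lower, and the median was 0.00. With GC content also corrected, 4 of the 7 were higher (*Prdx1*, *Prdx4*, *Prdx6* and *Srxn1*) and *Prdx5* was lower. *Prdx4*, the form of the endoplasmic reticulum, had the largest change of the 7 without correction. It had 28.0, 32.3 and 38.0 CPM in control hearts and 37.4, 39.4 and 48.5 CPM in IDA hearts, with 9 of 10 IDA hearts above the highest control heart. It rose by 0.35 on the log2 scale (SE 0.06, adjusted p = 2.3e-05), was at 0.05 with the gene length correction (adjusted p = 0.275), and was again called higher, at 0.14 (adjusted p = 0.0144), once GC content was corrected too. *Prdx6*, which uses glutathione and also acts on phospholipid hydroperoxides, had 167, 184 and 207 CPM in control hearts and 193, 217 and 227 CPM in IDA hearts. Its groups overlapped, with 8 of 10 IDA hearts above the highest control heart. *Prdx6* rose by 0.20 (adjusted p = 0.000281), and by 0.14 with the gene length correction (adjusted p = 0.00768). *Srxn1* encodes sulfiredoxin, which repairs overoxidized peroxiredoxins, and is a known NRF2 target. It had 56.9, 68.4 and 78.3 CPM in control hearts and 71.4, 78.1 and 105 CPM in IDA hearts, with 5 of 10 IDA hearts above the highest control heart. *Srxn1* rose by 0.27 (SE 0.08, adjusted p = 0.0027), and by 0.29 with the gene length correction (adjusted p = 0.00211).

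The other 4 peroxiredoxins were also higher without correction. *Prdx1* had 108, 122 and 145 CPM in control hearts (lowest, median, highest) and 131, 148 and 156 CPM in IDA hearts, and its log2 fold change was 0.22 (adjusted p = 0.000682). *Prdx2*, which is also abundant in red blood cells, had 135, 149.6 and 172 CPM in control hearts and 164, 184 and 192 CPM in IDA hearts, and its log2 fold change was 0.25 (adjusted p = 5.25e-05). With the gene length correction *Prdx1* was at 0.00 and *Prdx2* at -0.05, both without a call, and *Prdx1* was again called higher, at 0.18 (adjusted p = 0.0021), when GC content was corrected as well. The mitochondrial *Prdx3* had 177, 197 and 232 CPM in control hearts and 204, 231 and 237.6 CPM in IDA hearts, and its log2 fold change was 0.16 (adjusted p = 0.00459), the smallest of the 6 without correction. *Prdx5*, found in mitochondria, peroxisomes and cytosol, had 115, 125 and 147 CPM in control hearts and 129.7, 151 and 158 CPM in IDA hearts, and its log2 fold change was 0.19 (adjusted p = 0.00131). In each of these 4 genes the groups overlapped and between 5 and 7 of the IDA hearts were above the highest control heart. With the gene length correction *Prdx3* was at -0.05 without a call, and *Prdx5* was lower, at -0.15 (adjusted p = 0.00643), and at -0.32 (adjusted p = 6.2e-05) with GC content too. Reads of *Prdx5* and *Prdx2* are in part uncertain, since 22.1% and 13.0% of their 75-base stretches also occur in other genes.

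In the thioredoxin system, the cytosolic and mitochondrial thioredoxins, the mitochondrial reductase and *Msra* were higher, and the cytosolic reductase was lower, while with the gene length correction only *Txnrd2* and *Msra* remained called. *Txnrd2*, which encodes the mitochondrial thioredoxin reductase, a selenoprotein, had 70.9, 82.7 and 91.8 CPM in control hearts and 87.4, 108 and 123 CPM in IDA hearts. Of the 10 IDA hearts, 8 were above the highest control heart. Its rise on the log2 scale was 0.36 (SE 0.06, adjusted p = 9.2e-06), 0.23 with the gene length correction (adjusted p = 0.000562) and 0.09, without a call, with GC content also corrected. *Txnrd1*, its cytosolic counterpart and an NRF2 target, had 134, 145 and 162 CPM in control hearts and 115, 131 and 148 CPM in IDA hearts, with 6 of 10 IDA hearts below the lowest control heart. It fell by 0.15 on the log2 scale (SE 0.05, adjusted p = 0.00985), and was at 0.03 with the gene length correction (adjusted p = 0.546). *Msra*, which reduces oxidized methionine with electrons from thioredoxin, had 83.0, 89.8 and 99.9 CPM in control hearts and 96.0, 114 and 122 CPM in IDA hearts. In 9 of 10 IDA hearts the level was above the highest control heart. *Msra* rose by 0.30 (SE 0.04, adjusted p = 4.53e-06), and by 0.18 with the gene length correction (adjusted p = 0.00055). *Txn1*, the cytosolic thioredoxin, had 51.5, 54.8 and 63.2 CPM in control hearts and 59.5, 67.2 and 70.4 CPM in IDA hearts. The mitochondrial *Txn2* had 169, 188 and 212 CPM in control hearts and 195, 227 and 233.5 CPM in IDA hearts. Both thioredoxins rose, with log2 fold changes of 0.24 for *Txn1* (adjusted p = 5.62e-05) and 0.21 for *Txn2* (adjusted p = 0.000339), and both were without a call with the gene length correction (-0.04 and -0.03). After correction for GC content as well, *Txn2* was called lower, at -0.14 (adjusted p = 0.0135).

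The enzymes of glutathione synthesis moved in opposite directions. *Gclc*, the catalytic subunit of glutamate-cysteine ligase, the rate-limiting step, lies on chromosome 9 from 77754535 to 77794489. It had 33.7, 40.6 and 46.4 CPM in control hearts (lowest, median, highest) and 23.5, 28.2 and 37.3 CPM in IDA hearts. The groups overlapped through 1 IDA heart, and the other 9 were below the lowest control heart. Mean levels of the control and IDA groups were 40.3 ± 4.59 and 29.2 ± 4.45 CPM (SD, n = 10 each). *Gclc* fell by 0.47 on the log2 scale (SE 0.08, adjusted p = 3.59e-05), and by 0.36 with the gene length correction (adjusted p = 0.000261). *Gss*, glutathione synthetase, which completes the tripeptide, lies on chromosome 2 from 155563183 to 155592706. It had 35.1, 39.4 and 45.8 CPM in control hearts and 48.1, 53.8 and 65.8 CPM in IDA hearts, and the groups did not overlap. *Gss* rose by 0.47 on the log2 scale (SE 0.07, adjusted p = 2.19e-06), and by 0.33 with the gene length correction (adjusted p = 4.51e-05). Of the 75-base stretches of *Gss*, 11.7% also occur in other genes, mainly a transcript on the other strand.

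*Gclm*, the modifier subunit of glutamate-cysteine ligase and an NRF2 target with an ARE core in its promoter, had 34.0, 36.6 and 43.2 CPM in control hearts and 26.9, 34.6 and 59.7 CPM in IDA hearts. Its IDA values were widely spread: 4 IDA hearts were below the lowest control heart and 2 were above the highest. The SD was 3.35 CPM over control hearts and 10.4 CPM over IDA hearts, and the log2 fold change of -0.04 (SE 0.11, adjusted p = 0.77) did not pass the test. The difference between the changes of *Gclc* and *Gclm* was not tested. *Gsr*, glutathione reductase, which recycles oxidized glutathione with NADPH, had 53.7, 57.9 and 64.1 CPM in control hearts and 55.4, 59.6 and 63.4 CPM in IDA hearts. The IDA range lay within the control range, and the log2 fold change was 0.01 (SE 0.04, adjusted p = 0.806). *Slc7a11*, which brings in cystine for glutathione synthesis, was close to the detection limit, with a mean of 1.6 read pairs per control heart and a highest level of 0.722 CPM among controls and 0.999 CPM among IDA hearts. No fold change is given for it.

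**Figure D4:**
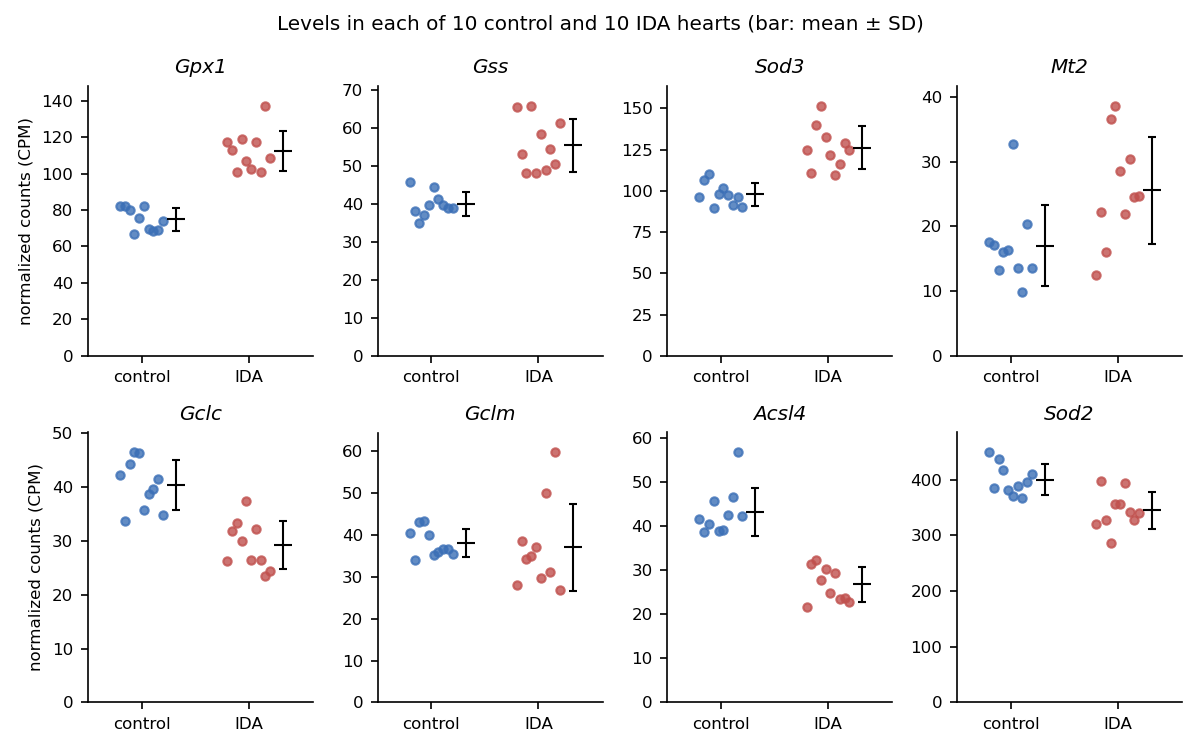
Normalized counts in CPM (axes start at 0) of *Gpx1*, *Gss*, *Sod3*, *Mt2*, *Gclc*, *Gclm*, *Acsl4* and *Sod2* in each of 10 control hearts (blue) and 10 IDA hearts (red), with the mean ± SD in black. *Gpx1* and *Gss* are higher and *Acsl4* is lower in every IDA heart than in any control heart, and *Gclm* is spread from 26.9 to 59.7 CPM in IDA hearts.

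Of the 5 glutaredoxins and glutathione transferases, 4 were higher in IDA hearts and *Glrx2* did not pass the test, but the gene length correction ended these 4 calls and called *Glrx2* higher. *Gsta4*, a transferase that conjugates the lipid peroxidation product 4-hydroxynonenal, changed most without correction. It had 73.2, 85.5 and 96.0 CPM in control hearts and 92.1, 102 and 108 CPM in IDA hearts, with 9 of 10 IDA hearts above the highest control heart. *Gsta4* rose by 0.27 (adjusted p = 6.82e-05), and was at -0.03 with the gene length correction. *Mgst1*, a microsomal transferase with peroxidase activity, had 50.0, 58.6 and 65.2 CPM in control hearts and 61.7, 69.3 and 75.02 CPM in IDA hearts, with a log2 fold change of 0.20 (adjusted p = 0.00237 by the same test). *Gstm1*, a cytosolic transferase with close paralogs, had 128, 135 and 160.1 CPM in control hearts and 144, 162 and 172 CPM in IDA hearts, with a log2 fold change of 0.19 (adjusted p = 0.000956). The 2 transferases overlapped between the groups, with 6 of 10 IDA hearts above the highest control heart in each, and were at -0.10 and -0.05 with the gene length correction, and *Gstm1* was called lower, at -0.16 (adjusted p = 0.00745), when GC content was added. *Glrx*, the cytosolic glutaredoxin that removes glutathione from proteins, had 39.7, 43.4 and 49.5 CPM in control hearts and 45.2, 49.4 and 54.2 CPM in IDA hearts, with a rise of 0.18 on the log2 scale (adjusted p = 0.00207), and a value of -0.06 with the gene length correction. *Glrx2*, the mitochondrial glutaredoxin, which can hold an iron-sulfur cluster, had 63.1, 65.6 and 70.4 CPM in control hearts and 58.8, 66.6 and 78.5 CPM in IDA hearts. Its groups overlapped fully but for 4 IDA hearts at both ends, and its log2 fold change was 0.01 (SE 0.04, adjusted p = 0.911), against 0.16 with the gene length correction (adjusted p = 0.0147).

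*Nfe2l2*, which encodes NRF2, had 136, 147 and 158 CPM in control hearts and 117, 136 and 161 CPM in IDA hearts. Of the IDA hearts, 5 were below the lowest control heart and 1 was above the highest. Its level was shifted by -0.09 on the log2 scale (SE 0.04, adjusted p = 0.0819), and it was called lower when length was corrected, at -0.12 (adjusted p = 0.0197). *Keap1*, whose protein targets NRF2 for degradation, had 150.3, 162 and 168 CPM in control hearts and 160.3, 183 and 202 CPM in IDA hearts, with 8 of 10 IDA hearts above the highest control heart. It rose by 0.18 on the log2 scale (SE 0.04, adjusted p = 0.000661), and by 0.42 with the gene length correction (adjusted p = 3.38e-06). An antisense gene overlaps 510 bp of *Keap1*, and its reads cannot be told apart without strand. *Nqo1*, a quinone reductase and classical NRF2 target, had 89.0, 95.7 and 109.5 CPM in control hearts and 101, 106 and 121 CPM in IDA hearts. Only 2 IDA hearts were above the highest control heart. *Nqo1* rose by 0.15 (adjusted p = 0.00277), and was at -0.05 with the gene length correction (adjusted p = 0.259). The 8 members with an ARE core in the window did not share a direction. Of these, *Sod1*, *Prdx1*, *Srxn1*, *Mgst1* and *Mt2* were higher, *Txnrd1* was lower, and *Gclm* and *Nfe2l2* did not pass the test. The gene length correction kept the call of *Srxn1* alone among the 6 called. Members without a window, *Gclc* among them, are not covered by this count.

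*Acsl4*, a long-chain acyl-CoA synthetase that loads polyunsaturated fatty acids into phospholipids and thereby sensitizes cells to ferroptosis, showed the largest change of the set without correction. The gene lies on chromosome X from 142317993 to 142390535. Its levels were 38.6, 41.9 and 56.6 CPM in control hearts (lowest, median, highest) and 21.7, 26.3 and 32.3 CPM in IDA hearts. All 10 IDA hearts were below the lowest control heart. Mean levels of the control and IDA groups were 43.2 ± 5.46 and 26.8 ± 3.94 CPM (SD, n = 10 each), and the level fell by 0.69 on the log2 scale (SE 0.08, adjusted p = 5.01e-07). The log2 fold change was nearer to 0, at -0.37 (adjusted p = 2.42e-05), with the gene length correction, and -0.14, still with a call, with GC content also corrected. The change largest in size was then that of *Keap1* in the first of these fits (0.42) and that of *Gss* in the other (0.38).

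Both metallothioneins were higher in IDA hearts, but the gene length correction turned the call of *Mt1* and ended that of *Mt2*. *Mt2*, whose promoter is shown above, lies on chromosome 8 from 94172618 to 94173567. It had 9.90, 16.1 and 32.7 CPM in control hearts and 12.4, 24.6 and 38.6 CPM in IDA hearts. The groups overlapped widely, and only 2 IDA hearts were above the highest control heart. Its log2 fold change of 0.59 was the largest rise of the set without correction and also had the largest standard error (0.20, adjusted p = 0.0104), and it was 0.24 with the gene length correction (adjusted p = 0.322). Of its 75-base stretches, 30.2% occur in an antisense gene that overlaps it by 401 bp, so its reads are not all certain. *Mt1*, its neighbour, lies on chromosome 8 from 94179089 to 94180327 and had 49.7, 56.2 and 68.7 CPM in control hearts and 58.3, 68.9 and 71.8 CPM in IDA hearts. Of the IDA hearts, 5 were above the highest control heart. *Mt1* rose by 0.25 (SE 0.05, adjusted p = 0.000317) and turned to -0.12 with the gene length correction (adjusted p = 0.0262), and to -0.21 (adjusted p = 0.00132) with GC content also corrected.

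Some markers of cell types differed between the groups or between hearts. Their calls are from the fit without correction, where 35% of all genes were called higher and 32.5% lower. Calls of the markers with the gene length correction are not given. Cardiomyocyte markers were abundant in every heart, and 3 of the 7 were called higher and *Ttn* lower. Their sums ranged from 4294 to 6921 CPM for the control group, against 3680 to 5598 CPM for the IDA group. The lower IDA sums came from *Ttn*, whose mean was 3155 CPM for controls, against 1822 CPM with IDA. Every other marker of this list had a slightly higher mean with IDA, such as *Myh6* (1427 CPM, against 1365 CPM for controls). Erythroid markers summed to 146 to 212 CPM in control hearts and 207 to 683 CPM in IDA hearts. Of the 5 tested, 4 were higher, and the alpha-globin genes *Hba-a1* and *Hba-a2* were at 0 in all hearts. The mean log2 CPM of the 5 tested markers did not overlap between the groups (3.26 to 4.11 in control hearts and 4.34 to 6.56 in IDA hearts), so a fit with this mean as a covariate rests on the spread within the groups. In that fit 21 antioxidant genes were higher (27.2% of all genes) and 6 lower (27.0% of all genes), and *Prdx3*, *Mgst1*, *Nqo1* and *Mt2* lost their calls (log2 fold changes 0.17, 0.10, 0.11 and 0.47). *Gpx1* and *Prdx2*, which red blood cells also carry in quantity, were at 0.39 and 0.26 (adjusted p = 0.00029 and 0.00475). *Gclm* moved most, to -0.59 (adjusted p = 0.000748), and *Nfe2l2* was called lower, at -0.17 (adjusted p = 0.0386). The 4 highest erythroid means were 6.56, 6.10, 6.07 and 6.05, in IDA replicates 9, 5, 7 and 2. *Gclm* was at 59.7, 37.2, 50.0 and 38.7 CPM in these hearts. The lowest IDA means were 4.34, 4.38, 4.46 and 4.62, in replicates 8, 10, 6 and 3. There *Gclm* was lower, at 31.1, 26.9, 29.8 and 34.3 CPM. IDA replicates 5 and 7 had like means but unlike *Gclm* levels. Control hearts, whose means were below those of all IDA hearts, had *Gclm* levels from 34.0 to 43.2 CPM. The part of blood or erythroid cells in these levels was not tested beyond this fit. Macrophage markers summed to 551 to 617 CPM in control hearts and 578 to 691 CPM in IDA hearts, with 4 of 7 called higher and 1 lower, and 3 of 3 tested lymphocyte markers were higher. Endothelial markers summed to 1268 to 1468 CPM in control hearts and 1139 to 1381 CPM in IDA hearts, with 3 of 5 called lower and *Egfl7* higher. Of the 5 smooth muscle and pericyte markers 2 were lower and 1 higher (896 to 1103 CPM in control hearts, 786 to 1039 CPM in IDA hearts), and of the 5 fibroblast markers *Col1a1* was higher and *Pdgfra* lower (1077 to 1297 and 1065 to 1299 CPM). Among 4 atrial markers *Nppa* alone was called higher (212 to 459 and 236.6 to 530 CPM). Their part in these levels was not tested.

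Numbers in the column headers of the count table, whose meaning the labels do not give, formed 2 runs, an earlier run with 5 control and 7 IDA hearts and a later run with 5 control and 3 IDA hearts. Within the earlier run, 25 antioxidant genes were higher (30.1% of all genes) and 3 lower (28.7% of all genes). Within the later run, 7 were higher (19.4% of all genes) and 3 lower (23.9% of all genes), and *Sod2*, *Sod3*, *Gpx1*, *Gpx3*, *Prdx4*, *Txnrd2*, *Msra*, *Gclc*, *Gss* and *Acsl4* kept their calls. *Mt2* was at 0.05 within the later run. *Gclc*, *Gss* and *Acsl4* were at -0.50, 0.49 and -0.54 there. With library size as a covariate over all 20 hearts, 19 were higher (29.1% of all genes) and 4 lower (29.1% of all genes).

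A further 110 genes of the same network, listed by symbol for comparison, included the rest of the thioredoxin and glutathione families, NADPH supply, selenoprotein synthesis, NRF2 partners and metal handling. Of these, 102 were tested, 61 were higher and 20 lower in IDA hearts, with a median log2 fold change of 0.21, and with the gene length correction 41 were higher and 20 lower and the median was 0.09. Over all genes tested with that correction, 31.5% were higher and 23.5% lower, and the median was 0.04. Without correction, where 35% of all genes were higher and 32.5% lower, the thioredoxin family had 15 of 22 genes higher and 5 lower, against 12 higher and 5 lower with the gene length correction. The further glutathione transferases had 13 of 19 higher and 1 lower, against 1 higher and 4 lower with that correction. The NRF2 partners and targets had 5 of 16 higher and 6 lower, against 3 and 5. The genes of selenoprotein synthesis had 4 of 7 higher and 3 lower, against 5 higher and 2 lower with that correction. Among the metal genes, 3 of 5 were higher and 2 lower, and the gene length correction left 3 higher and ended both lower calls, those of *Mtf1* and *Slc30a1* (log2 fold changes -0.04 and 0.08), named after their values were seen.

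The largest rises were in *Mt3*, *Maff* and *Gstt1*. *Mt3*, a further metallothionein, had 0.909, 1.48 and 2.35 CPM in control hearts (lowest, median, highest) and 0.623, 3.73 and 7.70 CPM in IDA hearts, with a log2 fold change of 1.4 (SE 0.28, adjusted p = 0.000136) at levels of few read pairs. *Maff*, a small MAF protein that pairs with NRF2, was at a log2 fold change of 0.60 (SE 0.17, adjusted p = 0.00346). *Gstt1*, a theta-class glutathione transferase, was also at 0.60 (SE 0.09, adjusted p = 6.81e-06). All 3 were also called with the gene length correction, but *Maff* was not called with the erythroid covariate, and neither *Maff* nor *Gstt1* with GC content also corrected. The largest falls were in *Sepsecs*, *Sesn3* and *Bach1*. *Bach1*, a repressor that competes with NRF2 at AREs and is released by heme, had 76.1, 104 and 132 CPM in control hearts and 39.3, 51.6 and 75.02 CPM in IDA hearts. All IDA hearts were below the lowest control heart. Its log2 fold change was -0.93 (SE 0.12, adjusted p = 6.45e-07), and -0.57 with the gene length correction (adjusted p = 7.5e-06). *Sepsecs*, which completes the selenocysteine-carrying tRNA used for *Gpx1*, *Gpx3*, *Gpx4*, *Txnrd1* and *Txnrd2*, had a log2 fold change of -1.11 (SE 0.13, adjusted p = 4.3e-07). *Sesn3*, a sestrin, had -1.04 (SE 0.15, adjusted p = 3.14e-06). These 3 kept their calls with the gene length correction, with GC content also corrected and with the erythroid covariate. *Sepsecs* belongs to selenoprotein synthesis, where, as counted above, more genes were higher than lower.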

How the data were processed

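RNA of 20 whole hearts was analysed, grouped by diet as labelled. The authors mapped 75-bp read pairs with STAR (mm10), discarded PCR duplicates, and used featureCounts (version 1.4.5-p1) to count pairs on the exons of each gene name, ignoring strand. They deposited these counts unnormalized. The highest gene had 2.06 to 2.39 read pairs per exonic base in a heart, and the antioxidant genes had 0.05 to 1.48. Removal of duplicates can understate levels and differences of short abundant mRNAs, and whether it did so here was not tested. The paper left out a mouse of each group for contamination of the sample without naming it, so all 20 were kept. Whether these were the 2 hearts that stood apart by *Alb* is not known.

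Counts were normalized by TMM and tested with edgeR 4.0.16 in R 4.3.3 (quasi-likelihood test, minimum 1 CPM in 10 or more hearts, Benjamini-Hochberg over 13590 genes). p-values measure the spread between mice. CPM values use TMM library sizes. The length correction subtracted a loess curve (span 0.5, degree 1) on log2 exonic length in each heart, and GC content was known for 99.1% of tested genes. Alternatives were DESeq2 1.42.0, other factors, no filter, covariates for library size and erythroid markers, the replicate block, and 100 fits without 1 heart of each group. The 2 runs of column header numbers were added after seeing the data. Steps were tested on simulated data. Every member is named, with lowest, median and highest values where the rule asked (large or unstable changes) and otherwise for completeness, and of the other redox genes the 3 largest called changes each way. The members, lists and marker genes were chosen with earlier results of these data known. Some results on other genes are not reported here.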

Additional observations from a re-analysis of the deposited data

Results flagged for a closer look

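Single hearts lay far from the rest of their group in 6 of the 70 comparisons of 10 hearts made (35 genes in 2 groups), where chance flags about 1 in 20. The IDA hearts were replicate 9 for *Gpx1* (137 CPM, next 119 CPM), replicate 1 for *Glrx2* (78.5 CPM, next 69.2 CPM), replicate 4 for *Nqo1* (121 CPM, next 112 CPM) and replicate 5 for *Slc7a11* (0.999 CPM, from 8 read pairs). The control hearts were replicate 9 for *Acsl4* (56.6 CPM, next 46.6 CPM) and replicate 6 for *Mt2* (32.7 CPM, next 20.3 CPM). In the 100 fits that each left out 1 heart of each group, *Gpx1*, *Nqo1* and *Acsl4* kept their calls, *Glrx2* stayed without one, and *Mt2* lost its call only in fits that left out control replicate 8.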

How the results depend on the processing

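The counts of 25 higher and 4 lower antioxidant genes were the same with DESeq2's size factors, upper-quartile factors, DESeq2's Wald test, no filter on low counts, the header number run as a covariate, and p below 0.01 in both packages. They moved most with the 2 corrections and within the later run of header numbers. With the gene length correction 9 genes were higher and the median log2 fold change turned to -0.027. With GC content also corrected, 10 were higher, 7 were lower, and the median was 0.039. In that fit 32 of the 102 other redox genes tested were higher, where 26.8% of all genes were. Within the later run, 7 were higher.

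Log2 fold changes that turned with the gene length correction were *Sod1* -0.14, *Prdx2* -0.050, *Prdx3* -0.052, *Prdx5* -0.15, *Txn1* -0.039, *Txn2* -0.030, *Txnrd1* 0.034, *Glrx* -0.057, *Mgst1* -0.097, *Gstm1* -0.049, *Gsta4* -0.027, *Nqo1* -0.046 and *Mt1* -0.12. With GC content also corrected they were *Sod1* -0.078, *Sod2* 0.13, *Cat* 0.0083, *Gpx3* -0.064, *Gpx4* -0.24, *Prdx2* -0.066, *Prdx5* -0.32, *Txn2* -0.14, *Txnrd1* 0.039, *Gclm* 0.041, *Gstm1* -0.16, *Gsta4* -0.0078 and *Mt1* -0.21, of which *Sod2* was called higher and *Gpx4*, *Prdx5*, *Txn2*, *Gstm1* and *Mt1* lower. The cause was not tested. Of the other turned values none passed a test. They were *Cat* 0.11, *Gclm* 0.096 and *Glrx2* -0.025 within the earlier run, *Gsr* -0.037 and *Glrx2* -0.016 with the erythroid covariate, *Gsr* -0.0012 and *Glrx2* -0.019 with library size as a covariate, *Cat* 0.023 with upper-quartile factors, and *Glrx2* -0.00096 and -0.0019 with DESeq2's size factors and Wald test. The library size covariate ended the calls of 6 genes, *Sod1*, *Prdx3*, *Prdx5*, *Glrx*, *Mgst1* and *Gstm1*, and left 19 higher and 4 lower (29.1% of all genes each way), with the median moving from 0.20 to 0.10.

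Over the 100 fits that each left out 1 heart of each group, 24 to 25 genes were higher and 4 to 5 lower, and the median log2 fold change was 0.17 to 0.24. The log2 fold changes that crossed 0 ranged over -0.049 to 0.039 for *Cat*, -0.16 to 0.024 for *Gclm*, -0.015 to 0.037 for *Gsr* and -0.041 to 0.035 for *Glrx2*. *Mt2* lost its call in 2 fits, both without control replicate 8, at 0.43 without IDA replicate 4 (adjusted p = 0.0545) and 0.42 without IDA replicate 5 (adjusted p = 0.0569). *Nfe2l2* was called lower in 13 fits, 10 of them without IDA replicate 5. With the replicate block, 25 genes were higher and 4 lower, and no call changed. Whether equal replicate numbers pair the hearts is not known. Deviations of same-numbered hearts from their group means correlated from -0.28 to 0.26, and the same-numbered IDA heart was the closest match for control replicates 1, 3 and 7. These correlations cannot decide it, since hearts could be paired without deviating together.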
